A study of Mus musculus with 16 samples.

Results

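Hearts reperfused for 6 h were compared with sham-operated hearts in wild-type male C57BL/6 mice of 10 weeks. In the 6 h group the left anterior descending coronary artery, which feeds the anterior wall of the left ventricle, had been tied for 30 min and then reopened for 6 h. The sham group carries that label alone, with no hours after surgery. The comparison takes 4 arrays labelled as 6 h of reperfusion (replicates 7, 8, 10 and 11) and 4 labelled as sham (replicates 2, 3, 4 and 5), 8 of the 16 arrays of the series, and covers all 19505 named genes. The other 8 arrays, of hearts reperfused for 24 or 72 h, entered the estimate of the spread. Each array measured total RNA of the heart, and the labels name no region of it, so fewer cells of a type and less RNA per cell cannot be told apart. Effects of reperfusion and of hours since surgery or time of day cannot be told apart either, because the sham labels give no time.

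Values are the authors' log2 signals, in which 1 unit is a 2-fold difference on the deposited scale. "Rose" and "fell" mark genes whose adjusted p in limma's moderated test lay below 0.05 over all 19505 genes, and a change is the mean of the 6 h arrays minus the mean of the sham arrays. Where values are listed by array, they follow replicates 7, 8, 10 and 11 at 6 h and replicates 2, 3, 4 and 5 in sham. Negative control probe sets had their 75th percentile at 6.76. A mean under that level is called below background, and changes that start or end there depend in size on the correction for it. The labels state 4 hearts per group. The SE and p-values rest on the spread between hearts within groups, pooled over all groups of the series, later reperfusion times included. Limma's moderation also draws this spread towards that of other genes. For a gene that varies widely among the 6 h hearts, the SE and p-value can therefore understate that variation.

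When blood returns to ischemic muscle, dying cells release intracellular contents that are sensed by innate immune receptors on resident macrophages, endothelium and fibroblasts. Signalling through NF-kB, AP-1 and STAT3 then induces cytokines, chemokines and adhesion molecules, and neutrophils enter the tissue before monocytes do. Surviving cardiomyocytes meanwhile experience altered wall stress, and surgery raises circulating adrenal hormones, each of which is known to act on its own set of genes. The 81 gene lists described below follow these processes and the cell types of the heart, and 1150 of their 1261 genes were measured.

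The arrays of each group resembled each other more than they did those of the other group. Correlations between arrays over all genes were 0.980 to 0.986 among the 6 h arrays, 0.985 to 0.988 among the sham arrays and 0.966 to 0.977 between the groups. Cardiac muscle markers were among the brightest genes in both groups: the troponin genes Tnnt2 and Tnni3 averaged 18.91 ± 0.13 and 17.06 ± 0.05 at 6 h and 18.92 ± 0.09 and 17.14 ± 0.07 in sham (SD, n = 4 each). Spike-in control transcripts were brighter at 6 h. The 4 hybridization spike-ins had a mean of 10.69 to 10.80 on the 6 h arrays and 10.45 to 10.60 on the sham arrays. The 4 poly-A spike-ins had a mean of 7.04 to 7.30 on the 6 h arrays and 6.76 to 6.89 on the sham arrays. The 1324 positive control probe sets were dimmer at 6 h, with medians of 9.39 to 9.70 on the 6 h arrays and 9.76 to 9.84 on the sham arrays. Centring the arrays on the hybridization and poly-A spike-ins moved the median change of all genes, -0.04 as deposited, to -0.26 and -0.37. Changes are given relative to the deposited scale unless a centring is named. Where a centring turned the sign of a list's median given here, or moved a count given here by more than 1.5 times, the centred values are given beside it, with rises before falls.

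In all, 1545 genes rose (7.92%) and 2395 fell (12.3%), together 20.2% of those tested. By at least 2-fold, 755 rose (3.87%) and 609 fell (3.12%), a balance that turned to 565 and 1148 under hybridization centring and to 491 and 1634 under poly-A centring. The median rise was 0.98 and the median fall -0.76 on the log2 scale. At 4-fold or more there were 269 rises and 61 falls, and at 8-fold or more (3 log2 units) 125 rises and 3 falls. The sham mean was below background for 122 of the 269 large rises, and the 6 h mean for 21 of the 61 large falls. The 6 h and sham arrays did not overlap for 4448 genes (22.8%). Calls depended on the level of the gene: among genes with a mean under 4 over all 16 arrays 1.08% rose and 0.867% fell, against 13.5% and 24.7% of genes between 8 and 10, and 9.90% and 13.5% of genes at 14 and over. Of the 8616 genes with a mean above background in at least 1 group, 14.6% rose and 22.6% fell. The count of each list below stands against the shares of all genes, 7.92% and 12.3%.

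**Figure D1:**
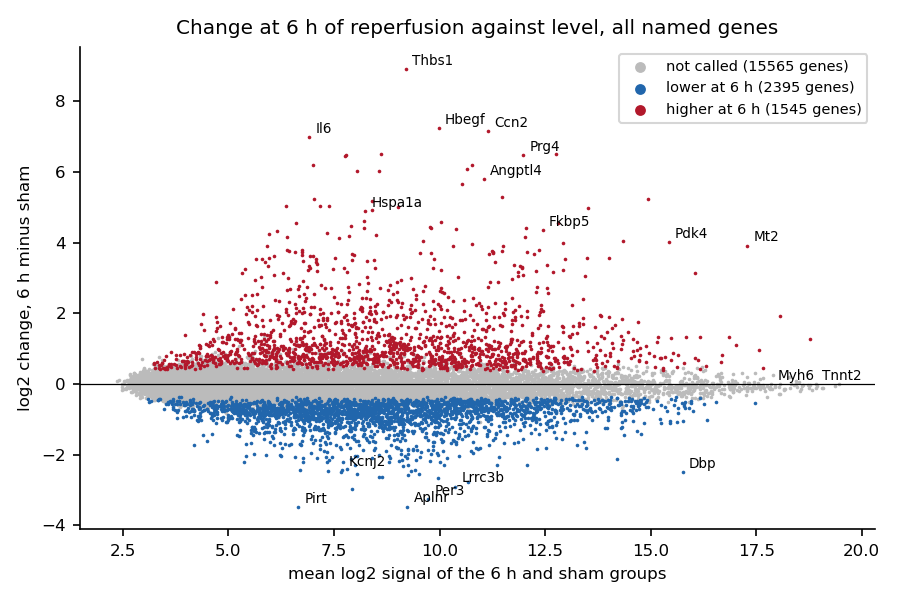
Each point is 1 named gene, with the mean log2 signal of the 6 h and sham groups on the x axis and the log2 change, 6 h minus sham, on the y axis. The 1545 genes that rose (red) reach 8.92, the 2395 that fell (blue) reach -3.49, and grey points were not called.

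The 15 largest rises included genes of matrix, growth factor and cytokine proteins. Ccn2, the connective tissue growth factor gene, read 15.21, 14.43, 14.71 and 14.56 on the 6 h arrays and 7.37, 7.65, 7.64 and 7.62 on the sham arrays. Prg4, which encodes the surface lubricant lubricin, read 14.90, 15.19, 15.60 and 15.20 at 6 h and 8.98, 9.36, 9.13 and 7.50 in sham. All 4 hearts at 6 h lay far above all 4 sham hearts for both genes, and sham replicate 5 was the lowest for Prg4, so that the changes were 7.16 ± 0.50 (SE, adjusted p = 4.81e-09) and 6.48 ± 0.47 (SE, adjusted p = 7.84e-09). Lcn2, whose product lipocalin 2 binds iron carriers of bacteria, read 16.15, 16.05, 16.15 and 15.71 at 6 h and 9.95, 10.30, 10.40 and 7.38 in sham, where replicate 5 again stood lowest, with a change of 6.51 ± 0.55 (SE, adjusted p = 5.59e-08). Angptl4, an inhibitor of lipoprotein lipase, read 14.68, 13.48, 13.95 and 13.66 at 6 h and 8.15, 8.33, 8.48 and 7.64 in sham, a change of 5.79 ± 0.38 (SE, adjusted p = 2.96e-09). These 4 genes had sham means above background, whereas Thbs1, Hbegf, Il6, Myc, Selp, Timp1, Ccl2, Cxcl5 and Retnlg, also among the 15 largest rises, had sham means below background. Thbs1, for thrombospondin 1, read 13.68, 13.75, 14.06 and 13.17 at 6 h and 5.31, 4.48, 4.62 and 4.57 in sham, and Hbegf, for a ligand of ErbB receptors, read 13.65, 13.56, 13.40 and 13.81 at 6 h and 6.29, 6.35, 5.98 and 6.81 in sham.

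The 15 largest falls spanned receptors, transporters and transcription factors. The gene of the apelin receptor, Aplnr, read 7.68, 7.53, 7.87 and 6.93 at 6 h and 10.45, 10.24, 11.16 and 12.05 in sham. Crhr2, the receptor of the cardioactive urocortins, read 7.73, 8.34, 7.90 and 7.90 at 6 h and 10.47, 10.41, 10.39 and 10.96 in sham. No array of one group reached the other for either gene, and the changes were -3.47 ± 0.30 (SE, adjusted p = 8.47e-08) and -2.59 ± 0.18 (SE, adjusted p = 4.92e-09). P2ry1, a receptor for ADP, changed by -2.63 ± 0.24 (SE, adjusted p = 1.95e-07). Among the other genes of this set, Lrrc3b and Lrrc14b encode leucine-rich repeat proteins, and Lrrc3b read 8.56, 8.64, 9.26 and 9.23 at 6 h and 12.00, 11.75, 11.91 and 11.64 in sham. Abca8a, an ATP-binding cassette transporter gene, read 9.11, 9.46, 9.19 and 9.39 at 6 h and 11.76, 11.89, 12.03 and 12.56 in sham. The 4 values within each group lay within 1 log2 unit for both, against changes of -2.91 ± 0.19 (SE, adjusted p = 2.93e-09) and -2.77 ± 0.23 (SE, adjusted p = 4.25e-08). Rassf9 changed by -2.62 ± 0.23 (SE, adjusted p = 1.02e-07), Lrrc14b by -2.67 ± 0.21 (SE, adjusted p = 3.42e-08) and Nudt12, which encodes a hydrolase of NADH, by -2.54 ± 0.22 (SE, adjusted p = 7.16e-08). Pirt, Ppp1r3b, Irx4 and Mxra8 fell to means below background at 6 h.

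**Figure D2:**
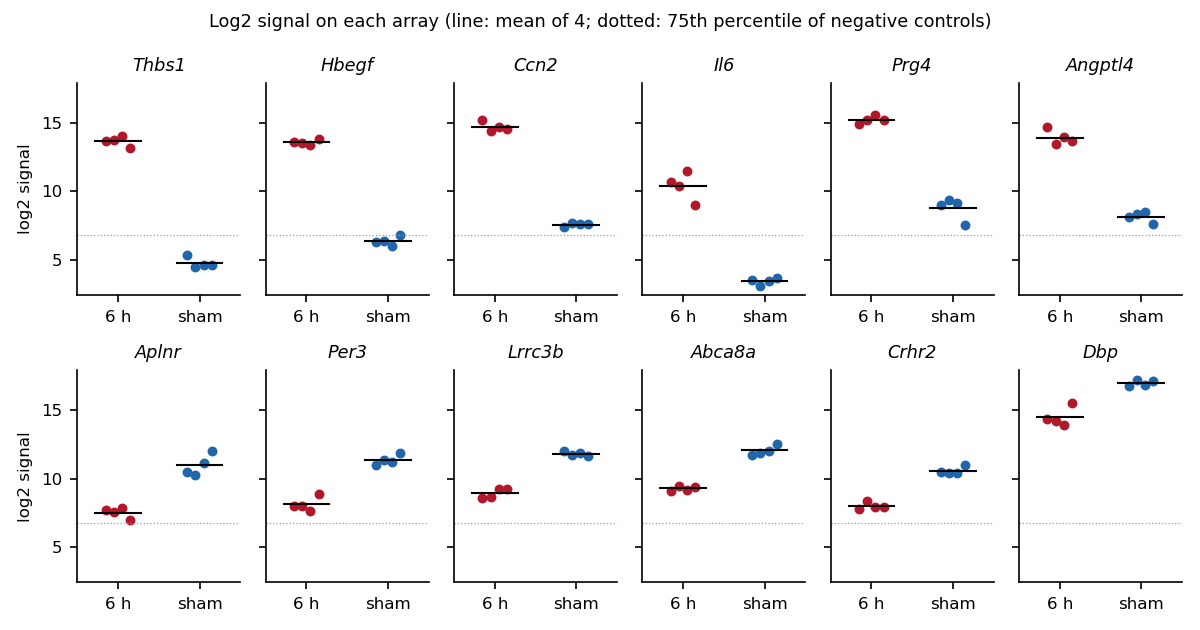
Points are the log2 signals of single arrays, 6 h left and sham right, for 6 of the largest rises (upper panels) and 6 of the largest falls (lower panels). The black line is the mean of 4 arrays and the dotted line the 75th percentile of negative controls, 6.76. The groups do not overlap for any of the 12 genes.

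Promoter sequences were read from the RefSeq table of 300 base windows (250 bases before to 50 after the start, build GRCm38.p6), which held 15691 of the measured genes. Windows of 4 genes that rose, 3 of inflammation and 1 of wall stress, are shown because they carry the letters of the searched motifs upstream of the start. Il6, the gene of interleukin 6, lies at chr5:30012864-30013163 on the + strand. The neutrophil chemokine genes Cxcl1 and Cxcl2 lie at chr5:90890995-90891294 and chr5:90903649-90903948, both on the + strand. Nppb, which encodes the natriuretic peptide BNP, lies at chr4:147985650-147985949 on the + strand. Capitals mark the AP-1 letters TGANTCA and the NF-kB consensus in Il6, the NF-kB consensus in Cxcl1 and Cxcl2, and TATAAA in Nppb.
Il6: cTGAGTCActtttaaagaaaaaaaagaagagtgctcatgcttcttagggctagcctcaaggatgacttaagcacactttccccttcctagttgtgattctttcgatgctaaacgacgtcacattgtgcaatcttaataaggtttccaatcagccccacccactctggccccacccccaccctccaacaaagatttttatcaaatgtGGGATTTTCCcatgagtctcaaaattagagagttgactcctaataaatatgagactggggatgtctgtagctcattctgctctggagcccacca
Cxcl1: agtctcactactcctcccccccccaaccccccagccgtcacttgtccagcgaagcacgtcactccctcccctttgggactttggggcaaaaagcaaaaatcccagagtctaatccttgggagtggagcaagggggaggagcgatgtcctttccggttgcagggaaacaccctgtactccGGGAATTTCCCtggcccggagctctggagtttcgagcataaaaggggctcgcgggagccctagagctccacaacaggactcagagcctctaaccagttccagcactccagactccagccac
Cxcl2: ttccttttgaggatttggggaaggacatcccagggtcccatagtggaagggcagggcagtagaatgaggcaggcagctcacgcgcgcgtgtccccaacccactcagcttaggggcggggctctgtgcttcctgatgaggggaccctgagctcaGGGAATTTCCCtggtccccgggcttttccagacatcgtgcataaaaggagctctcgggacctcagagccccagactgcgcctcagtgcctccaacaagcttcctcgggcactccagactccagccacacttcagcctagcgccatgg
Nppb: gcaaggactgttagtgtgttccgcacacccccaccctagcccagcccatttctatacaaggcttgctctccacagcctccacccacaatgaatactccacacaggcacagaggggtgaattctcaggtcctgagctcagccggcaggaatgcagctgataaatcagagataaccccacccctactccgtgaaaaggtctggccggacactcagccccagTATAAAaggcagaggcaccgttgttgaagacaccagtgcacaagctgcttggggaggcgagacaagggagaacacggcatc

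On the arrays, Il6 read 10.71, 10.41, 11.51 and 8.99 at 6 h and 3.51, 3.10, 3.46 and 3.63 in sham. Cxcl1 read 8.52, 8.04, 8.07 and 6.83 at 6 h and 3.82, 4.33, 3.76 and 3.93 in sham, and Cxcl2 read 8.16, 7.77, 8.77 and 6.75 at 6 h and 4.72, 4.62, 4.60 and 4.95 in sham. Replicate 11 was the lowest of the 6 h arrays for Il6, and none of the 3 genes overlapped between groups. The changes were 6.98 ± 0.47 (SE, adjusted p = 3.37e-09) for Il6, 3.90 ± 0.27 (SE, adjusted p = 4.32e-09) for Cxcl1 and 3.14 ± 0.33 (SE, adjusted p = 9.35e-07) for Cxcl2. Nppb read 15.86, 15.86, 15.98 and 15.51 at 6 h and 11.95, 11.44, 12.12 and 13.44 in sham, a change of 3.56 ± 0.37 (SE, adjusted p = 7.30e-07).

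Across all windows, searched on both strands, the NF-kB consensus was found in 15.3% of the 215 genes with a window that rose at least 4-fold, in 9.03% of the 487 that fell at least 2-fold and in 8.86% of all 15691. TGANTCA was found in 10.7%, 3.70% and 7.27% of these groups. TATAAA was found in 18.1%, 9.65% and 13.1%, but in 8.43% of the 7038 genes whose mean was above background, so the group it is set against matters. The cyclic AMP element TGACGTCA, whose letters hold neither TGANTCA nor TATAAA, was in 2.79%, 3.29% and 2.42%, and the CArG box, the site of serum response factor, in 2.33%, 1.44% and 1.49%. The E-box CACGTG was in 12.1%, 6.98% and 8.18%. Among the 7038 genes above background, the E-box was in 10.4%, the NF-kB consensus in 9.89% and TGANTCA in 5.10%. TGACGTCA was in 3.41% of them and the CArG box in 1.49%. The large rises had a median of 12 CpG dinucleotides per window, against 17 for the large falls, 14 for all genes and 21 for genes above background. A match describes the letters of the window and does not show that a factor was bound.

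Of 13 AP-1 and ATF genes, 11 rose and 1 fell, with a median change of 2.13 against -0.04 for all genes. Atf3, a stress-induced member, read 13.64, 14.45, 14.16 and 12.47 at 6 h and 8.05, 7.23, 7.51 and 7.63 in sham, and Fosl2 changed by 2.02 ± 0.30 (SE, adjusted p = 5.28e-05). Fosb rose by 4.28 ± 0.29 (SE, adjusted p = 3.62e-09) and the basic leucine zipper gene Maff by 3.33 ± 0.23 (SE, adjusted p = 4.32e-09). The fall was in Batf3, at -0.49 ± 0.17 (SE, adjusted p = 0.0481), a call that ended when single arrays were left out, with adjusted p of 0.0737 to 0.15 without 6 h replicate 10, 6 h replicate 11, 6 h replicate 8, sham replicate 2, sham replicate 3, sham replicate 4 or sham replicate 5. Of 16 EGR, NR4A and related genes, 11 rose, with a median of 1.90. Nr4a3, an orphan nuclear receptor gene, read 11.90, 12.91, 11.90 and 12.44 at 6 h and 8.45, 8.99, 7.90 and 8.15 in sham, a change of 3.91 ± 0.28 (SE, adjusted p = 6.60e-09). Klf6 rose by 3.09 ± 0.25, Csrnp1 by 3.62 ± 0.30 and the antiproliferative gene Btg2 by 2.27 ± 0.42, while Egr3 (0.39, adjusted p = 0.184) and Klf4 (-0.22, adjusted p = 0.555) did not pass. 

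Several feedback inhibitors of MAP kinase and NF-kB signalling rose. Among 16 MAP kinase phosphatases and feedback inhibitors, 7 rose and 2 fell (1 without 6 h replicate 10, 6 h replicate 11, 6 h replicate 7, sham replicate 2, sham replicate 4 or sham replicate 5), with a median of 0.54. Errfi1, which blocks the EGF receptor, read 14.49, 14.46, 14.48 and 13.58 at 6 h and 9.71, 9.78, 10.05 and 9.76 in sham, with a change of 4.43 ± 0.24 (SE, adjusted p = 2.20e-10). Dusp5 and Dusp10, phosphatases of ERK and of stress kinases, rose by 2.79 ± 0.33 and 2.19 ± 0.24, and Spred1, an inhibitor of Ras signalling, by 1.81 ± 0.17. Dusp1 was at 0.35 (adjusted p = 0.404), and without 6 h replicate 11 its change was 0.67 (adjusted p = 0.0207). Of 13 NF-kB subunits and feedback genes, 6 rose, with a median of 0.55. Among them were the inhibitor Nfkbia (2.45 ± 0.24), its relative Nfkbiz (2.04 ± 0.27), the cofactor Bcl3 (1.94 ± 0.20), the ubiquitin ligase Birc3 (2.18 ± 0.22) and the subunit Rel (1.20 ± 0.27). Zfp36, whose product tristetraprolin destroys cytokine messengers, rose by 3.29 ± 0.30 (SE, adjusted p = 1.60e-07), whereas its relative Zfp36l1 fell, at -1.11 ± 0.14 (SE, adjusted p = 7.97e-06). The whole group of 10 mRNA decay factors had 3 rises and 3 falls (1 and 3 under hybridization centring, 1 and 4 under poly-A centring) and a median of 0.08, which was -0.14 and -0.26 under hybridization and poly-A centring, and the count of falls was 1 without 6 h replicate 10.

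Genes of the EGF family went both ways. Hbegf rose by 7.25 ± 0.43 (SE, adjusted p = 8.88e-10) and Ereg, for epiregulin, by 3.65 ± 0.23 (SE, adjusted p = 2.07e-09), while the receptor gene Erbb3 fell, at -0.96 ± 0.22 (SE, adjusted p = 0.0029). In all, 4 of 11 EGF family genes rose and 2 fell (1 without 6 h replicate 8, sham replicate 3 or sham replicate 5), with 2 and 2 under hybridization centring and 2 and 2 under poly-A centring, and the rises numbered 2 without 6 h replicate 10, 6 h replicate 11, sham replicate 2 or sham replicate 3. The median of the family, 0.16, was -0.06 and -0.18 under these centrings.

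Ligand, receptor and decoy genes of the IL-6 and IL-1 families were among the rises. Of 12 genes of the IL-6 family and STAT3 feedback, 8 rose and 1 fell (8 and 1 under hybridization centring, 5 and 2 under poly-A centring), with a median of 0.94. The oncostatin M receptor gene Osmr read 13.32, 13.08, 13.04 and 13.06 at 6 h and 9.42, 9.49, 9.51 and 9.13 in sham, and its change was 3.74 ± 0.17 (SE, adjusted p = 1.57e-11). The receptor gene Lifr fell, at -0.86 ± 0.20 (SE, adjusted p = 0.0039). The 2 products pair with the same signalling subunit, gp130. The STAT3 feedback inhibitor Socs3 rose by 1.63 ± 0.25 and the kinase gene Pim1 by 1.84 ± 0.26. Il11 was at -0.18 (adjusted p = 0.541), and at -0.52 (adjusted p = 0.0394) under poly-A centring.

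Of 11 IL-1 family genes, 7 rose, with a median of 2.35. Il1b read 10.03, 8.09, 10.11 and 9.01 at 6 h and 5.48, 5.27, 5.69 and 6.49 in sham, and the alarmin gene Il33 read 9.88, 9.79, 10.47 and 9.64 at 6 h and 6.23, 5.52, 5.81 and 5.44 in sham. The receptor antagonist Il1rn and the decoy receptor Il1r2 read alike, with changes of 3.55 ± 0.39 (SE, adjusted p = 1.58e-06) and 3.48 ± 0.51 (SE, adjusted p = 4.44e-05) beside 3.57 ± 0.51 (SE, adjusted p = 3.50e-05) for Il1b and 4.19 ± 0.33 (SE, adjusted p = 3.14e-08) for Il33. Il1a did not pass (adjusted p = 0.996). Sham means were below background for 9 of the 11 genes, among them Il1b, Il33, Il1rn and Il1r2. Of 14 TNF superfamily genes, 3 rose and 1 fell: the receptor genes Tnfrsf12a (4.16 ± 0.28), Fas (2.30 ± 0.21) and Tnfrsf1a (1.68 ± 0.26) were higher, the death ligand Tnfsf10 was lower (-1.92 ± 0.30 (SE, adjusted p = 9.18e-05)) and Tnf itself was at 0.47 (adjusted p = 0.42). The median of this group, 0.28, was -0.06 under poly-A centring. Among colony stimulating factor genes, the receptors Csf3r and Csf2rb rose by 3.0 ± 0.62 and 1.81 ± 0.27, while the ligand Csf3 was at 0.18 (adjusted p = 0.502).

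Chemokine genes that attract neutrophils and monocytes were among the rises. Of 8 genes of the neutrophil-attracting CXC group, 5 rose, with a median of 2.08, and of 16 monocyte-attracting CC genes 10 rose, with a median of 1.37. Ccl2 read 12.09, 11.41, 11.36 and 11.47 at 6 h and 5.77, 5.38, 5.35 and 5.67 in sham, and Cxcl5 read 11.24, 10.19, 11.43 and 11.11 at 6 h and 4.82, 4.26, 4.67 and 4.38 in sham. For Ccl2, replicate 7 stood above the other 6 h arrays, and no sham array came near any of them. Ccl7, Ccl3 and Ccl12 rose by 3.27 ± 0.48, 3.27 ± 0.39 and 3.49 ± 0.63, and the receptor genes Ccr1 and Cxcr2 by 3.63 ± 0.52 and 3.78 ± 0.63. In the group of homeostatic and interferon-induced chemokines, 3 of 15 rose and 3 fell (2 and 3 under hybridization centring, 2 and 5 under poly-A centring), with a median of -0.09. Cxcl12, which retains cells in the tissue and marrow, read 11.69, 11.32, 11.63 and 11.54 at 6 h and 12.61, 12.22, 12.33 and 12.87 in sham and fell, at -0.97 ± 0.19 (SE, adjusted p = 9.19e-04). The fractalkine receptor gene Cx3cr1 also fell (-0.89 ± 0.20 (SE, adjusted p = 0.0027)), and Cxcl14 rose (1.12 ± 0.28 (SE, adjusted p = 0.0059)). Ptgs2, for the inducible cyclooxygenase, rose by 3.55 ± 0.27 (SE, adjusted p = 1.91e-08), and the prostaglandin-degrading Hpgd fell (-1.29 ± 0.30 (SE, adjusted p = 0.0035)). Lta4h, which makes leukotriene B4, fell as well (-0.54 ± 0.16 (SE, adjusted p = 0.0177)).

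Of 16 interferon-stimulated genes, 6 rose, with a median of 0.58, and 3 and 3 were higher under hybridization and poly-A centring. Ifit1 rose by 1.72 ± 0.37 (SE, adjusted p = 0.0022), Ifit3 by 1.39 ± 0.37 (SE, adjusted p = 0.0107) and Mx1 by 1.28 ± 0.27 (SE, adjusted p = 0.0018), while Isg15 was at 0.43 (adjusted p = 0.16). The count was 3 without 6 h replicate 7, sham replicate 2 or sham replicate 4.

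Markers of neutrophils and of recruited monocytes were on average higher in every 6 h heart than in any sham heart, and lymphocyte markers were below background. Of 15 neutrophil markers, 11 rose, with a median of 3.48. Their mean signal by array was 7.75, 7.56, 8.61 and 7.21 at 6 h and 4.85, 4.90, 4.81 and 4.52 in sham, so replicate 10 carried the most and replicate 11 the least at 6 h. S100a9, one of the calprotectin subunits, read 8.30, 8.29, 9.78 and 7.43 at 6 h and 5.33, 5.24, 4.39 and 3.88 in sham, a change of 3.74 ± 0.64 (SE, adjusted p = 2.69e-04). The collagenase Mmp8 rose by 4.26 ± 0.48, and Mmp9, the neutrophil gelatinase, was at 0.34 (adjusted p = 0.768). Of 14 monocyte and recruited macrophage markers, 8 rose, with a median of 1.21. Their array means were 8.57, 8.10, 8.56 and 8.39 at 6 h and 7.08, 7.02, 6.89 and 7.02 in sham. Itgam, the CD11b integrin that neutrophils share, rose by 3.29 ± 0.39, Msr1 by 2.72 ± 0.38, Vcan by 2.56 ± 0.17 and Chil3 by 2.55 ± 0.65.

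Resident macrophage markers divided. Of 15, 5 rose and 2 fell (1 without 6 h replicate 10, 6 h replicate 7, sham replicate 3 or sham replicate 5), with a median of 0.10 that was -0.12 and -0.24 under the spike-in centrings, and the rises numbered 3 without 6 h replicate 8 (3 and 4 under hybridization centring, 3 and 4 under poly-A centring). The efferocytosis receptor Mertk rose by 1.58 ± 0.18 (SE, adjusted p = 2.19e-06) and the mannose receptor Mrc1 by 1.10 ± 0.15 (SE, adjusted p = 3.02e-05), whereas Timd4 (-0.23, adjusted p = 0.536) and Folr2 (-0.04, adjusted p = 0.946) did not pass. The largest fall of the list was that of Cx3cr1, at -0.89. All 12 markers of T, B and NK cells had means below background in both groups, among them Cd3e at 4.92 ± 0.40 at 6 h and 5.0 ± 0.27 in sham (SD, n = 4 each). The MHC class II genes H2-Aa (0.30, adjusted p = 0.582) and H2-Ab1 (0.09, adjusted p = 0.897) did not pass.

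Several innate sensor genes rose. Of 16 Toll-like receptor and adaptor genes, 9 rose and 1 fell, with a median of 0.89. Tlr13, a sensor of bacterial ribosomal RNA, read 8.53, 8.61, 8.52 and 7.24 at 6 h and 5.0, 4.76, 5.53 and 5.92 in sham, and its change was 2.92 ± 0.38 (SE, adjusted p = 1.41e-05). Tlr7, an RNA sensor of endosomes, rose by 2.38 ± 0.30, the lipopolysaccharide co-receptor Cd14 by 2.12 ± 0.29 and Tlr4 by 1.20 ± 0.23. The negative regulator Irak3 rose by 3.19 ± 0.15 (SE, adjusted p = 3.40e-11). Tlr3 was at -0.05 (adjusted p = 0.926). Among complement genes, the receptor C3ar1 rose (1.19 ± 0.32 (SE, adjusted p = 0.0116)) and Cd55, which protects cells from complement, fell (-1.41 ± 0.25 (SE, adjusted p = 2.92e-04)), while C1s1 (-0.12, adjusted p = 0.784) and C1ra (-0.06, adjusted p = 0.912) did not pass.

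**Figure D3:**
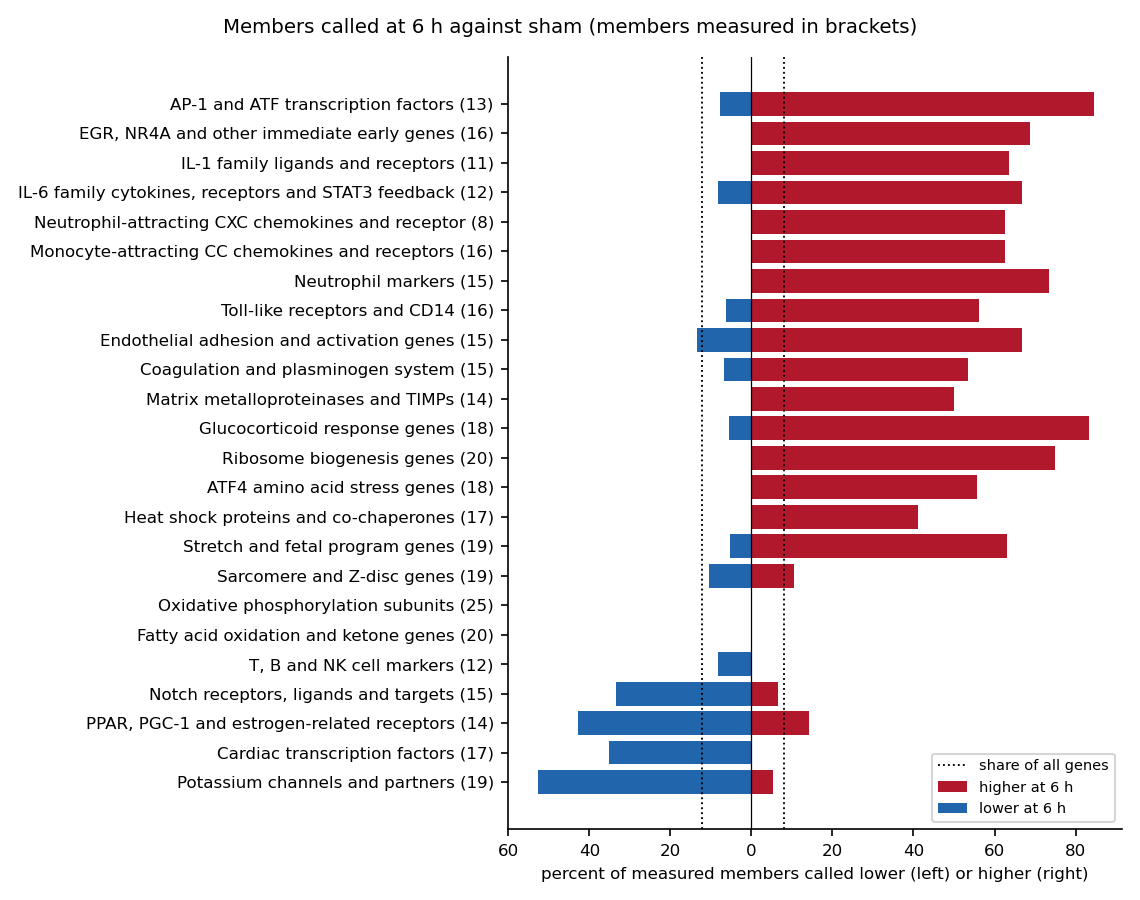
Bars give the percent of measured members of 24 gene lists that were called higher (red, right) or lower (blue, left) at 6 h than in sham, with the number measured in brackets. Dotted lines mark the share of all genes, 7.92% higher and 12.3% lower. Signalling, cytokine, glucocorticoid and ribosome biogenesis lists extend to the right, potassium channels, PPAR genes, cardiac transcription factors and Notch genes to the left, and oxidative phosphorylation and fatty acid oxidation have no bar. The 24 lists were picked by hand from 81. Lists not shown include smooth muscle and pericyte markers (14.3% higher, 35.7% lower) and VEGF and angiopoietin genes (21.4% higher, 35.7% lower). Of genes above background in at least 1 group, 14.6% were higher and 22.6% lower.

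Vessel genes moved in both directions. Of 15 endothelial adhesion and activation genes, 10 rose and 2 fell (0 without 6 h replicate 11, 6 h replicate 7, sham replicate 4 or sham replicate 5 and 1 without 6 h replicate 10 or sham replicate 2), with a median of 0.70, and the rises numbered 6 without sham replicate 5 (7 and 3 under hybridization centring, 5 and 3 under poly-A centring). P-selectin (Selp), which tethers leukocytes, read 10.12, 10.28, 10.64 and 9.40 at 6 h and 3.18, 4.34, 3.67 and 4.40 in sham. E-selectin (Sele) rose by 2.75 ± 0.31 (SE, adjusted p = 2.79e-06) and Vcam1 by 1.38 ± 0.20 (SE, adjusted p = 3.38e-05). Angpt2, which antagonises the receptor Tie2 in quiescent vessels, read 8.51, 8.79, 9.08 and 8.55 at 6 h and 6.85, 5.88, 6.11 and 6.20 in sham, a change of 2.47 ± 0.28 (SE, adjusted p = 3.06e-06). The agonist Angpt1 fell (-1.58 ± 0.25 (SE, adjusted p = 9.88e-05)), and so did the Tie2 gene Tek, which read 9.52, 9.82, 9.61 and 10.12 at 6 h and 10.83, 11.06, 11.62 and 11.18 in sham (-1.40 ± 0.16 (SE, adjusted p = 3.33e-06)). The VEGF receptor gene Kdr fell (-0.82 ± 0.15 (SE, adjusted p = 4.13e-04)) and the ligand Pgf rose (3.65 ± 0.52 (SE, adjusted p = 3.38e-05)). Of 14 VEGF and angiopoietin genes 3 rose and 5 fell.

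Of 15 endothelial identity genes, 4 rose and 3 fell (1 and 3 under hybridization centring, 1 and 3 under poly-A centring). Cdh5, the vascular cadherin, was at 0.09 (adjusted p = 0.782) and Esam rose by 0.94 ± 0.19 (SE, adjusted p = 0.001). The median of this group, 0.24, was -0.10 under poly-A centring. Among 15 Notch pathway genes 1 rose and 5 fell (0 and 5 under hybridization centring, 0 and 8 under poly-A centring), with a median of -0.22. The targets Hey1 and Hey2 fell (-1.77 ± 0.22 (SE, adjusted p = 8.70e-06) and -1.12 ± 0.24 (SE, adjusted p = 0.0019)), as did the ligand Jag2 (-0.60 ± 0.14 (SE, adjusted p = 0.0037)). Hey1 read 7.51, 8.0, 8.04 and 8.74 at 6 h and 9.81, 9.58, 9.97 and 10.02 in sham, with no overlap.

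Enzymes that make adenosine at the cell surface rose. Nt5e, the CD73 enzyme that makes adenosine, read 10.86, 10.68, 11.12 and 10.74 at 6 h and 5.74, 6.03, 6.11 and 5.85 in sham. Entpd1, the CD39 enzyme upstream of it, read 14.32, 14.67, 14.06 and 13.96 at 6 h and 12.22, 11.77, 12.36 and 11.77 in sham. Both rose, by 4.92 ± 0.39 (SE, adjusted p = 3.26e-08) and 2.22 ± 0.20 (SE, adjusted p = 1.08e-07), beside the endothelin receptor gene Ednrb (1.65 ± 0.27 (SE, adjusted p = 1.54e-04)) and Ece1 (1.09 ± 0.24 (SE, adjusted p = 0.0022)), which matures endothelin. The apelin ligand gene Apln was at 0.19 (adjusted p = 0.851), in contrast to the fall of its receptor gene Aplnr.

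Of 14 smooth muscle and pericyte markers, 2 rose and 5 fell (1 and 5 under hybridization centring, 1 and 8 under poly-A centring), with a median of -0.33. The smooth muscle myosin gene Myh11 fell (-0.73 ± 0.16 (SE, adjusted p = 0.0024)) and so did Smtn (-0.57 ± 0.15 (SE, adjusted p = 0.0076)) and the pericyte channel gene Kcnj8 (-0.96 ± 0.18 (SE, adjusted p = 6.36e-04)), while Acta2 was at 0.08 (adjusted p = 0.884). Mustn1 rose by 1.84 ± 0.18 (SE, adjusted p = 4.19e-07). Of 13 fibroblast markers 1 rose and 2 fell (0 and 3 under hybridization centring, 0 and 6 under poly-A centring), with a median of -0.36. Their shares, 7.69% and 15.4%, were near those of all genes, 7.92% and 12.3%. The falls were Lum (-0.95 ± 0.26 (SE, adjusted p = 0.013)), whose adjusted p was 0.0537 to 0.0542 without 6 h replicate 11 or sham replicate 5, and Cd248, or endosialin, which read 6.34, 6.07, 7.30 and 6.62 at 6 h and 8.10, 7.82, 8.37 and 8.21 in sham, a change of -1.54 ± 0.22 (SE, adjusted p = 4.43e-05). Epicardial markers were dim in both groups in 11 of 12 cases: Upk3b, a mesothelial gene, fell (-1.48 ± 0.32 (SE, adjusted p = 0.0022)) and Aldh1a2, which makes retinoic acid, rose (1.86 ± 0.21 (SE, adjusted p = 2.26e-06)). Among atrial markers, which vary with the cut of the tissue, Kcnj3 fell (-1.67 ± 0.19 (SE, adjusted p = 2.27e-06)), and Myl7 (0.20, adjusted p = 0.943), Myl4 (0.09, adjusted p = 0.976) and Sln (-0.27, adjusted p = 0.856) did not pass.

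Several genes of clotting and its dissolution rose. Of 15 coagulation and plasminogen genes, 8 rose and 1 fell, with a median of 0.76. Plaur, the urokinase receptor gene, read 9.16, 9.81, 10.67 and 8.90 at 6 h and 4.46, 4.48, 3.79 and 4.87 in sham. The plasminogen activator Plat rose by 1.39 ± 0.24, its cell surface co-receptor Anxa2 by 2.43 ± 0.26 and the anticoagulant thrombomodulin gene Thbd by 2.08 ± 0.27. Serpina3n, an acute phase protease inhibitor, read 13.40, 13.54, 13.21 and 13.31 at 6 h and 8.74, 7.92, 8.20 and 5.97 in sham, a change of 5.66 ± 0.51 (SE, adjusted p = 1.55e-07). Plau, the urokinase gene, was at -0.17 (adjusted p = 0.789) although the receptor gene rose by 5.23 ± 0.49 (SE, adjusted p = 2.27e-07).

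Of 14 thrombospondin, CCN and matricellular genes, 6 rose, with a median of 0.74. Beside Thbs1 and Ccn2, Ccn1 rose by 5.24 ± 0.40 (SE, adjusted p = 1.91e-08) and tenascin C (Tnc) by 2.67 ± 0.36 (SE, adjusted p = 2.07e-05), while Thbs2 (-0.24, adjusted p = 0.462), Thbs3 (-0.02, adjusted p = 0.976) and Thbs4 (0.89, adjusted p = 0.117) did not pass. The 4 thrombospondins of this list thus gave a single call. Of 14 metalloproteinase and TIMP genes, 7 rose, with a median of 1.08. Timp1 read 10.74, 10.94, 11.33 and 11.26 at 6 h and 5.17, 4.59, 5.32 and 5.01 in sham, and Timp3, bound to matrix, read 12.80, 12.94, 12.41 and 12.95 at 6 h and 10.89, 10.80, 10.64 and 10.58 in sham. Their changes were 6.04 ± 0.50 (SE, adjusted p = 4.68e-08) and 2.04 ± 0.17 (SE, adjusted p = 3.72e-08), and Mmp14, the membrane-bound collagenase, rose by 2.01 ± 0.36 (SE, adjusted p = 4.05e-04) and Mmp3 by 1.84 ± 0.37 (SE, adjusted p = 0.0012).

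ADAMTS proteases were divided evenly, 4 of 11 higher and 4 lower. Adamts1, which cleaves versican, read 13.82, 14.30, 14.68 and 13.75 at 6 h and 9.15, 8.60, 8.86 and 8.71 in sham, a change of 5.31 ± 0.31 (SE, adjusted p = 6.45e-10). Adamts4 and Adamts9 rose too (3.14 ± 0.53 (SE, adjusted p = 2.20e-04) and 2.07 ± 0.25 (SE, adjusted p = 5.95e-06)), and Adamts10, Adamts3 and Adamts7 fell (-1.44 ± 0.26 (SE, adjusted p = 4.73e-04), -1.09 ± 0.17 (SE, adjusted p = 1.27e-04) and -0.99 ± 0.19 (SE, adjusted p = 6.36e-04)). Of 12 hyaluronan genes, 6 rose, with a median of 0.50, led by the receptor Cd44 (3.78 ± 0.37 (SE, adjusted p = 4.56e-07)), versican (Vcan, 2.56 ± 0.17 (SE, adjusted p = 3.24e-09)) and Tnfaip6 (2.05 ± 0.29 (SE, adjusted p = 3.50e-05)), which links hyaluronan chains to proteins.

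Collagens and their cross-linking enzymes had 3 rises and 2 falls (1 without 6 h replicate 11, 6 h replicate 7, sham replicate 4 or sham replicate 5) among 18 genes and a median of -0.08 (3 and 5 under hybridization centring, 3 and 6 under poly-A centring). Basement membrane collagens Col4a1 and Col4a2 rose (0.95 ± 0.20 (SE, adjusted p = 0.0014) and 1.17 ± 0.15 (SE, adjusted p = 1.47e-05)), as did lysyl oxidase (Lox, 2.70 ± 0.24 (SE, adjusted p = 1.23e-07)), which joins collagen chains. The proteoglycan gene Bgn fell (-0.67 ± 0.18 (SE, adjusted p = 0.0095)) and Col1a1 was at -0.37 (adjusted p = 0.301), which passed as lower under poly-A centring. Col3a1 fell to 9.23 ± 0.51 at 6 h, against 10.14 ± 0.53 in sham (SD, n = 4 each), a change of -0.91 ± 0.29 (SE, adjusted p = 0.0304) that did not pass with an adjusted p of 0.069 to 0.121 without 6 h replicate 11, 6 h replicate 7, sham replicate 4 or sham replicate 5.

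Of 23 TGF-beta, BMP and activin genes, 11 rose and 1 fell (8 and 2 under hybridization centring, 8 and 2 under poly-A centring), with a median of 0.28 (-0.06 under poly-A centring). Tgfb2 rose by 2.08 ± 0.23 (SE, adjusted p = 1.70e-06) and the receptor gene Tgfbr1 by 1.57 ± 0.22 (SE, adjusted p = 2.98e-05), while Tgfb1 was at 0.25 (adjusted p = 0.397). The activin subunit gene Inhba (1.73 ± 0.36 (SE, adjusted p = 0.0015)) rose together with the activin antagonist Fstl3 (2.82 ± 0.39 (SE, adjusted p = 2.78e-05)). Of 20 IGF and FGF genes, 4 rose and 4 fell (2 and 5 under hybridization centring, 2 and 6 under poly-A centring), and the centrings gave medians of -0.22 and -0.33. Igf1 read 10.53, 11.20, 10.79 and 10.07 at 6 h and 11.81, 11.77, 11.88 and 12.70 in sham. It fell, at -1.39 ± 0.27 (SE, adjusted p = 9.39e-04), as did Igfbp5 (-1.56 ± 0.22 (SE, adjusted p = 2.91e-05)), Fgf9 (-1.46 ± 0.19 (SE, adjusted p = 1.64e-05)) and Fgf7 (-0.96 ± 0.24 (SE, adjusted p = 0.0067)). Igfbp3 rose (1.15 ± 0.27 (SE, adjusted p = 0.0039)) and so did Fgfr1 (1.01 ± 0.22 (SE, adjusted p = 0.0022)).

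Of 18 targets of ATF4, the factor that responds to amino acid shortage, 10 rose, with a median of 1.09. Slc7a5, a carrier of large amino acids, read 7.31, 7.73, 7.65 and 8.09 at 6 h and 5.54, 4.93, 5.30 and 5.98 in sham, and its change was 2.25 ± 0.34 (SE, adjusted p = 7.00e-05). Atf4 itself rose by 1.72 ± 0.28, Psat1 by 1.73 ± 0.36, Asns by 1.59 ± 0.32, Ddit4 by 1.85 ± 0.34 and the cystine carrier Slc7a11 by 1.65 ± 0.29. Trib3 (-0.38, adjusted p = 0.183) and Chac1 (0.12, adjusted p = 0.718) did not pass, although Trib3 passed as lower under both spike-in centrings. Of 16 endoplasmic reticulum stress genes, 2 rose and 3 fell (1 and 6 under hybridization centring, 1 and 10 under poly-A centring), with a median of -0.26. Their shares were 12.5% and 18.75%, against 7.92% and 12.3% of all genes. Ddit3, the CHOP gene, fell (-1.34 ± 0.26 (SE, adjusted p = 7.01e-04)) and so did Herpud1 (-1.12 ± 0.21 (SE, adjusted p = 7.02e-04)), Xbp1 rose (0.94 ± 0.17 (SE, adjusted p = 5.88e-04)) and the chaperone gene Hspa5 was at -0.21 (adjusted p = 0.485), which passed as lower under poly-A centring.

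Of 18 NRF2 and glutathione genes, 6 rose and 1 fell (2 without 6 h replicate 11), with a median of 0.04 that was -0.18 and -0.30 under the spike-in centrings (5 and 2 under hybridization centring, 4 and 3 under poly-A centring). Hmox1 read 14.61, 13.92, 14.14 and 12.79 at 6 h and 7.58, 7.86, 7.66 and 7.54 in sham, where replicate 11 was the lowest of the 6 h arrays. Txnrd1 rose by 1.91 ± 0.28 (SE, adjusted p = 4.26e-05) and Gsr by 1.02 ± 0.26 (SE, adjusted p = 0.0076), whereas Nqo1, a classical NRF2 target, fell (-0.77 ± 0.17 (SE, adjusted p = 0.0024)). Of 17 metallothionein, zinc and iron genes, 7 rose and 1 fell (7 and 4 under hybridization centring, 7 and 4 under poly-A centring), and the median, 0.26, was -0.07 under poly-A centring. Mt2 read 19.30, 19.24, 19.33 and 19.11 at 6 h and 15.64, 16.52, 15.45 and 13.70 in sham, a change of 3.92 ± 0.43 (SE, adjusted p = 1.55e-06) beside 1.27 ± 0.22 (SE, adjusted p = 3.29e-04) for Mt1. The zinc importer Slc39a14 rose by 1.71 ± 0.19, haptoglobin (Hp) by 3.53 ± 0.48 and the metalloreductase Steap4 by 1.91 ± 0.20.

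Of 16 p53 targets and cell cycle inhibitors, 7 rose and 2 fell (1 without 6 h replicate 10, 6 h replicate 11, 6 h replicate 7, sham replicate 2, sham replicate 4 or sham replicate 5), with a median of 0.60. Cdkn1a, the p21 gene, read 16.08, 16.15, 16.16 and 15.70 at 6 h and 11.93, 10.85, 11.94 and 9.41 in sham, and Gadd45g read 11.25, 12.28, 12.18 and 10.33 at 6 h and 6.54, 6.10, 6.51 and 6.90 in sham. Their changes were 4.99 ± 0.44 (SE, adjusted p = 1.04e-07) and 5.0 ± 0.52 (SE, adjusted p = 7.86e-07), while the p53 targets Mdm2 (0.01, adjusted p = 0.98) and Ccng1 (-0.17, adjusted p = 0.511) did not pass and Cdkn1b fell (-0.84 ± 0.18 (SE, adjusted p = 0.0023)). Of 18 BCL-2 family and death genes, 5 rose and 1 fell (4 and 4 under hybridization centring, 4 and 4 under poly-A centring), with a median of 0.14 (-0.08 and -0.20 under the centrings). Bcl2l1 read 14.13, 14.15, 14.32 and 14.48 at 6 h and 10.29, 10.63, 10.68 and 10.26 in sham (3.80 ± 0.25 (SE, adjusted p = 2.96e-09)), and the inflammatory caspase gene Casp4 rose (3.0 ± 0.25 (SE, adjusted p = 6.35e-08)), as did Casp8 (1.08 ± 0.19 (SE, adjusted p = 2.65e-04)) and Mcl1 (0.89 ± 0.13 (SE, adjusted p = 4.93e-05)). Bcl2 fell (-0.97 ± 0.23 (SE, adjusted p = 0.0046)).

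Hypoxia genes were mixed, with 6 of 18 higher, 2 lower (1 without 6 h replicate 11, 6 h replicate 7, sham replicate 2, sham replicate 4 or sham replicate 5) and a median of -0.01 (0.02 under median centring of the arrays), and they numbered 6 and 5 under hybridization centring, 6 and 5 under poly-A centring. Pfkfb3, an activator of glycolysis, rose by 2.71 ± 0.37 (SE, adjusted p = 2.33e-05), Adm by 1.66 ± 0.36 (SE, adjusted p = 0.0024) and the glucose carrier Slc2a1 by 1.43 ± 0.27 (SE, adjusted p = 6.18e-04). Hif1a rose by 1.25 ± 0.17 (SE, adjusted p = 2.32e-05), and Egln3, an oxygen sensor that HIF induces, fell (-1.24 ± 0.31 (SE, adjusted p = 0.006)).

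Of 20 ribosome biogenesis genes, 15 rose, with a median of 0.68, and 9 and 8 were higher under hybridization and poly-A centring. Rrp12 read 9.60, 10.24, 10.32 and 10.27 at 6 h and 7.63, 7.31, 7.32 and 7.56 in sham, and Nop58 read 10.93, 10.97, 11.24 and 10.90 at 6 h and 8.72, 8.44, 8.68 and 8.85 in sham. Rrp12 changed by 2.65 ± 0.22 (SE, adjusted p = 3.66e-08) and Nop58 by 2.34 ± 0.26 (SE, adjusted p = 1.87e-06), and the RNA helicase gene Ddx21 rose by 1.81 ± 0.28 (SE, adjusted p = 7.56e-05). Of 16 ribosomal protein genes, 0 were called by limma, and 3 were higher and 0 lower at an unadjusted p below 0.05, with Rpl4 at 0.03 and Rpl7 at 0.20. The arrays did not overlap for 7 of these genes, against 22.8% of all genes. Their median, 0.27, was -0.07 under poly-A centring, where 1 was lower. Of 18 aminoacyl-tRNA synthetases 7 rose, but 1 and 0 under the spike-in centrings and 3 without sham replicate 3 and 4 without sham replicate 4 or sham replicate 5. The median of this list, 0.33, was -0.01 under poly-A centring.

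Odc1, the first enzyme of polyamine synthesis, rose by 1.63 ± 0.26 (SE, adjusted p = 1.08e-04), Srm by 2.13 ± 0.29 (SE, adjusted p = 2.17e-05), Azin1 by 1.32 ± 0.18 (SE, adjusted p = 1.81e-05) and the catabolic Sat1 by 3.05 ± 0.27 (SE, adjusted p = 1.45e-07). In all, 6 of 13 polyamine, arginine and nitric oxide genes rose. Of 15 G1 cyclin, kinase and E2F genes 1 rose and 4 fell (0 and 7 under hybridization centring, 0 and 7 under poly-A centring), with Ccnd2 at -1.09 ± 0.14 (SE, adjusted p = 1.08e-05) and Rbl1 at -1.30 ± 0.29 (SE, adjusted p = 0.0031). Among 18 DNA replication and mitosis genes, Tyms was the sole call, and Mcm2 (-0.16, adjusted p = 0.745) and Mcm5 (-0.20, adjusted p = 0.785) did not pass. The Tyms call (0.65 ± 0.18 (SE, adjusted p = 0.0152)) had an adjusted p of 0.0544 to 0.0656 without 6 h replicate 8 or sham replicate 3, and it ended under both spike-in centrings. Among 12 tubulins Tubb6 read 11.58, 11.88, 11.74 and 11.38 at 6 h and 8.15, 8.20, 7.81 and 7.56 in sham (3.72 ± 0.39 (SE, adjusted p = 8.45e-07)), Tuba1c rose by 1.32 ± 0.21 and Tuba1b was at 0.26 (adjusted p = 0.343).

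In the muscle compartment, of 19 stretch and fetal program genes, 12 rose and 1 fell (2 under poly-A centring), with a median of 1.88. Xirp1, which binds actin at the intercalated disc, read 14.75, 15.31, 15.23 and 15.04 at 6 h and 10.61, 10.71, 10.55 and 10.24 in sham. Nmrk2, a nicotinamide riboside kinase gene of muscle, read 8.31, 9.19, 9.53 and 11.73 at 6 h and 6.05, 6.74, 5.63 and 6.27 in sham. The changes were 4.56 ± 0.16 (SE, adjusted p = 1.51e-12) and 3.52 ± 0.48 (SE, adjusted p = 2.12e-05), and Lmcd1 rose by 3.77 ± 0.40 and Ankrd1 by 1.94 ± 0.26. Fhl2, a LIM protein of the Z-disc, was the exception that fell (-0.55 ± 0.14 (SE, adjusted p = 0.0081)). Of 19 sarcomere and Z-disc genes, 2 rose and 2 fell (1 and 3 under hybridization centring, 1 and 4 under poly-A centring), with a median of -0.09. Their shares, 10.5% each, were near those of all genes, 7.92% and 12.3%. Synpo2l rose (3.17 ± 0.38 (SE, adjusted p = 4.47e-06)), Tcap fell (-1.05 ± 0.24 (SE, adjusted p = 0.0038)) and Ldb3 fell (-0.69 ± 0.15 (SE, adjusted p = 0.0019)), while Ttn was at -0.13 (adjusted p = 0.6).

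Potassium channels had the highest share of falls of the 81 lists, which were chosen with earlier results of these data known. Of 19, 10 fell and 1 rose, with a median of -0.58. Kcnj2, which carries the inward rectifier current, read 6.06, 7.45, 5.40 and 7.05 at 6 h and 9.23, 8.81, 9.24 and 8.38 in sham. Kcnh2, of the rapid delayed rectifier, read 9.58, 10.35, 9.61 and 10.37 at 6 h and 11.54, 11.89, 12.00 and 11.89 in sham. All 6 h arrays were below all sham arrays for both, with changes of -2.43 ± 0.32 (SE, adjusted p = 1.58e-05) and -1.85 ± 0.23 (SE, adjusted p = 5.56e-06), and Kcnj5 and Kcnj3, subunits of the acetylcholine-gated channel, fell too (-1.82 ± 0.16 (SE, adjusted p = 1.46e-07) and -1.67 ± 0.19 (SE, adjusted p = 2.27e-06)). The exception was Kcna5, which read 9.69, 9.74, 9.45 and 9.15 at 6 h and 7.73, 7.50, 7.21 and 7.57 in sham (2.0 ± 0.16 (SE, adjusted p = 3.44e-08)). The 10 sodium channel, pacemaker channel and connexin genes gave 0 calls by limma, with 0 higher and 1 lower at an unadjusted p below 0.05, and 1 and 5 were lower under hybridization and poly-A centring. Among 17 calcium handling genes 2 rose (1 without 6 h replicate 7 or sham replicate 2) and 2 fell, near the shares of all genes (1 and 5 under hybridization centring, 1 and 8 under poly-A centring). Cacnb2, a subunit of the L-type calcium channel, fell (-1.41 ± 0.17 (SE, adjusted p = 5.37e-06)), the junctophilin genes moved apart with Jph2 at -0.85 ± 0.19 (SE, adjusted p = 0.0025) and Jph1 at 0.86 ± 0.16 (SE, adjusted p = 5.87e-04), and Atp2a2 (-0.12, adjusted p = 0.543), Ryr2 (-0.09, adjusted p = 0.749) and Pln (-0.13, adjusted p = 0.576) did not pass. Adcy6, the adenylyl cyclase gene, fell (-1.32 ± 0.25 (SE, adjusted p = 6.96e-04)).

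Transcription factors that define the heart were lower in part. Of 17, 6 fell, with a median of -0.28, and 8 and 11 were lower under the spike-in centrings. Prox1 read 8.48, 9.18, 8.63 and 9.35 at 6 h and 11.01, 10.81, 11.27 and 11.37 in sham, and Gata4 read 11.60, 11.49, 11.14 and 12.29 at 6 h and 12.70, 12.77, 12.95 and 13.25 in sham. Their changes were -2.20 ± 0.26 (SE, adjusted p = 4.37e-06) and -1.29 ± 0.20 (SE, adjusted p = 1.07e-04). The ventricular gene Irx4 read 6.54, 6.02, 6.18 and 6.91 at 6 h and 8.96, 8.75, 8.79 and 9.17 in sham (-2.51 ± 0.28 (SE, adjusted p = 2.21e-06)) and Mef2c fell (-1.02 ± 0.15 (SE, adjusted p = 4.93e-05)), while Gata6 was at -0.14 (adjusted p = 0.7) and Nkx2-5 at -0.28 (adjusted p = 0.293). Among atrophy genes, the ubiquitin ligase gene Fbxo32 fell (-1.90 ± 0.37 (SE, adjusted p = 7.57e-04)) and its partner Trim63 was at -0.15 (adjusted p = 0.647). Gabarapl1, of autophagosomes, rose by 1.89 ± 0.14 (SE, adjusted p = 1.33e-08) and Fbxo30 by 1.10 ± 0.12 (SE, adjusted p = 1.70e-06).

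Genes that respond to glucocorticoids formed one of the lists with the most rises, among lists chosen with earlier results of these data known. Of 18, 15 rose and 1 fell, with a median of 2.87, and their array means were 12.81, 12.85, 12.78 and 12.47 at 6 h and 9.97, 10.12, 10.11 and 9.35 in sham. Fkbp5, which tunes the receptor, read 14.61, 14.44, 14.59 and 14.87 at 6 h and 10.35, 11.85, 10.36 and 8.51 in sham, and Pdk4, which inhibits pyruvate dehydrogenase, read 17.53, 17.17, 17.44 and 17.58 at 6 h and 13.26, 14.25, 13.09 and 13.09 in sham. The receptor gene Nr3c1 was the fall (-0.68 ± 0.15 (SE, adjusted p = 0.0023)). Several members, such as Cdkn1a, Gadd45g, Lcn2, Mt2 and Angptl4, also respond to other signals and stand in other lists above. Among Kruppel-like factors 5 of 15 rose and 2 fell: Klf5 rose by 1.26 ± 0.20 (SE, adjusted p = 9.25e-05), Klf12 and Klf3 fell (-1.62 ± 0.20 (SE, adjusted p = 6.41e-06) and -1.11 ± 0.13 (SE, adjusted p = 2.73e-06)), and Klf2 was at -0.03 (adjusted p = 0.948). Their median, 0.17, was -0.06 and -0.17 under the spike-in centrings.

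Clock genes moved in both directions. Of 14 core clock genes, 5 rose and 3 fell (3 and 3 under hybridization centring, 3 and 5 under poly-A centring), with a median of 0.09 (-0.13 and -0.24 under the centrings). Arntl, the Bmal1 gene, read 8.21, 9.0, 7.97 and 7.48 at 6 h and 6.47, 5.48, 6.49 and 6.31 in sham, and Per3 read 8.0, 7.97, 7.62 and 8.85 at 6 h and 10.98, 11.36, 11.25 and 11.87 in sham. Arntl rose by 1.98 ± 0.28 (SE, adjusted p = 3.34e-05), its partner Npas2 by 0.99 ± 0.19 (SE, adjusted p = 8.76e-04) and Per1 by 2.05 ± 0.16 (SE, adjusted p = 3.08e-08), while Per3 (-3.25 ± 0.27 (SE, adjusted p = 5.07e-08)) and Nr1d2 (-0.74 ± 0.19 (SE, adjusted p = 0.0085)) fell and Clock was at -0.14 (adjusted p = 0.667). The output factors Dbp, Hlf and Tef, all of the PAR bZIP family, fell. Dbp read 14.37, 14.23, 13.92 and 15.52 at 6 h and 16.80, 17.23, 16.88 and 17.14 in sham, with replicate 11 the highest at 6 h, a change of -2.50 ± 0.28 (SE, adjusted p = 1.80e-06) beside -2.04 ± 0.25 (SE, adjusted p = 6.16e-06) for Hlf and -1.03 ± 0.19 (SE, adjusted p = 4.46e-04) for Tef. The deubiquitinase gene Usp2 also fell (-1.57 ± 0.27 (SE, adjusted p = 2.42e-04)). The hours of tissue collection are not in the labels, so time of day and reperfusion cannot be told apart in these values.

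Enzymes of oxidative metabolism gave no calls, and several of their regulators fell. By limma, 0 of 20 fatty acid oxidation and ketone genes, 0 of 18 TCA cycle genes and 0 of 25 oxidative phosphorylation genes were called, and at an unadjusted p below 0.05 there were 3, 1 and 0 falls and 0 rises. Their medians were -0.14, -0.10 and -0.03, and 5, 1 and 0 of them were lower under hybridization centring and 8, 4 and 2 under poly-A centring. The 6 h and sham arrays did not overlap for 7, 3 and 0 of these genes, against 22.8% of all genes. The lowest change, -1.15, was in the fatty acid list and was not called. Of 14 PPAR, PGC-1 and related receptor genes, 2 rose and 6 fell (2 and 8 under hybridization centring, 1 and 8 under poly-A centring), with a median of -0.49. Ppargc1b, a coactivator of mitochondrial genes, read 7.24, 7.29, 7.17 and 7.71 at 6 h and 9.46, 9.54, 9.25 and 9.53 in sham, a change of -2.09 ± 0.19 (SE, adjusted p = 1.75e-07). Rxrg (-1.14 ± 0.18 (SE, adjusted p = 1.01e-04)) and the liver X receptor gene Nr1h3 (-1.21 ± 0.18 (SE, adjusted p = 4.74e-05)) fell and Pparg rose (1.84 ± 0.15 (SE, adjusted p = 3.84e-08)), whereas Ppargc1a was at -0.18 (adjusted p = 0.642) and Ppara at -0.32 (adjusted p = 0.498).

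Regulators of pyruvate oxidation moved apart. Pdk4 rose by 4.01 ± 0.28 (SE, adjusted p = 4.92e-09) and the opposing phosphatase genes Pdp1 and Pdp2 fell (-0.85 ± 0.17 (SE, adjusted p = 8.64e-04) and -2.22 ± 0.25 (SE, adjusted p = 2.46e-06)), while the enzyme subunits Pdha1 (-0.14, adjusted p = 0.644) and Dlat (-0.19, adjusted p = 0.549) did not pass. Pdp2 read 5.30, 6.20, 5.0 and 6.13 at 6 h and 7.35, 8.0, 7.72 and 8.43 in sham, with no overlap. Of 24 glucose genes, 4 rose and 7 fell (4 without 6 h replicate 7), with 4 and 9 under hybridization centring, 4 and 11 under poly-A centring. The ubiquitous glucose carrier Slc2a1, the lactate exporter Slc16a3 (1.64 ± 0.36 (SE, adjusted p = 0.0025)) and Pfkp (1.32 ± 0.19 (SE, adjusted p = 4.02e-05)) rose, and the insulin-responsive carrier Slc2a4 (-0.67 ± 0.18 (SE, adjusted p = 0.0115)), hexokinase Hk2 (-0.89 ± 0.19 (SE, adjusted p = 0.0018)) and the glycogen genes Gys1 (-0.83 ± 0.17 (SE, adjusted p = 0.0014)) and Ppp1r3b (-2.97 ± 0.31 (SE, adjusted p = 8.67e-07)) fell. Ppp1r3b, which brings a phosphatase to glycogen, read 5.92, 6.65, 6.52 and 6.63 at 6 h and 9.96, 9.70, 9.28 and 8.69 in sham. In NAD synthesis the kinase genes parted, Nmrk2 rising by 3.52 ± 0.48 (SE, adjusted p = 2.12e-05) and Nmrk1 falling (-1.94 ± 0.22 (SE, adjusted p = 2.85e-06)), with Nmnat1 lower (-1.33 ± 0.22 (SE, adjusted p = 2.09e-04)) and Nampt at -0.15 (adjusted p = 0.643). Vldlr fell (-0.75 ± 0.12 (SE, adjusted p = 1.38e-04)), and Lpl (-0.08, adjusted p = 0.788) and Cd36 (0.14, adjusted p = 0.596) did not pass. Of 17 genes of branched chain amino acid breakdown 3 fell (1 without 6 h replicate 10), among them the phosphatase gene Ppm1k (-0.78 ± 0.21 (SE, adjusted p = 0.0107)), and 8 and 9 were lower under hybridization and poly-A centring. The 3 falls were 17.6% of the list, against 12.3% of all genes and 22.6% of genes with a mean above background in at least 1 group.

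Gene families grouped by symbol after the values were seen were counted as well, and only some of those counted are given. Of 358 genes of zinc finger proteins named Zfp, 16 rose and 121 fell, with a median of -0.28, and these proteins include many transcriptional repressors of the KRAB type. With a mean above background in at least 1 group, 97 of 201 Zfp genes fell (48.3%), against 22.6% of all 8616 such genes. The counts were 9 and 166 under hybridization centring and 9 and 204 under poly-A centring, and 21 and 113 after quantile normalization. Of 22 cilium genes named Ift or Bbs, 8 fell (36.4%, against 12.3% of all genes) and 0 rose, with a median of -0.36. Under hybridization and poly-A centring 14 and 16 were lower. With a mean above background in at least 1 group, 6 of 11 fell. Of 48 initiation factor genes named Eif, 11 rose (22.9%, against 7.92% of all genes) and 0 fell. Their counts were 5 and 5 under hybridization centring and 5 and 10 under poly-A centring. Of 48 helicase genes named Ddx or Dhx, 11 rose and 3 fell (7 and 8, and 5 and 9, under these centrings). No test was made of these families.

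Among all named genes the 5 with the widest range over the 6 h arrays were Hspa1a, Hspa1b, Fos, Cxcl10 and Ankrd2. Hspa1a, for inducible HSP70, read 8.58, 13.59, 11.82 and 8.75 at 6 h and 6.34, 5.57, 5.72 and 5.51 in sham, and its neighbour Hspa1b, whose near-identical sequence may share probes, read 7.58, 12.78, 10.89 and 9.29 at 6 h and 6.01, 6.01, 5.07 and 5.52 in sham. Replicates 8 and 10 stood far above replicates 7 and 11 for Hspa1a, and all 4 lay above every sham array. Fos read 6.25, 9.87, 9.93 and 5.91 at 6 h and 5.37, 4.85, 5.02 and 6.0 in sham, with replicates 8 and 10 high and replicate 11 within the sham range. Its change was 2.68 ± 0.65 (SE, adjusted p = 0.0054), beside 4.90 ± 0.72 (SE, adjusted p = 4.67e-05) for Hspa1a and 4.48 ± 0.67 (SE, adjusted p = 5.67e-05) for Hspa1b. Because the spread is pooled over all groups, the SE and p-values of these genes understate the variation among the 6 h hearts. Cxcl10, an interferon-induced chemokine gene, was high in another heart: it read 9.77, 7.02, 6.08 and 6.27 at 6 h and 3.66, 3.88, 4.86 and 4.66 in sham, with replicate 7 highest (3.02 ± 0.58 (SE, adjusted p = 8.04e-04)). Ankrd2, a stretch-responsive muscle gene, read 6.69, 10.28, 8.94 and 7.35 at 6 h and 4.88, 3.59, 3.78 and 3.66 in sham (4.34 ± 0.55 (SE, adjusted p = 9.13e-06)), again with replicate 8 highest.

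As a group, 7 of 17 heat shock and co-chaperone genes rose (5 and 2 under hybridization centring, 5 and 4 under poly-A centring), with a median of 0.24 (-0.10 under poly-A centring) and array means of 12.92, 13.94, 13.50 and 13.14 at 6 h and 12.47, 12.32, 12.32 and 12.33 in sham. Dnajb1 rose by 1.89 ± 0.48 (SE, adjusted p = 0.0074), Hsp90aa1 by 1.92 ± 0.24 (SE, adjusted p = 9.57e-06) and Hspb1 by 3.56 ± 0.39 (SE, adjusted p = 1.52e-06). The order of the hearts was not the same for neutrophil markers, where Retnlg read 11.47, 10.34, 12.82 and 9.46 at 6 h and 4.39, 4.75, 4.25 and 4.79 in sham and S100a8 read 7.88, 8.97, 10.61 and 8.02 at 6 h and 4.99, 3.71, 3.98 and 2.68 in sham, both highest in replicate 10. Egr1 read 12.92, 13.20, 14.10 and 11.80 at 6 h and 8.71, 8.33, 8.81 and 11.49 in sham, where replicate 5 stood above the other sham arrays and near replicate 11 of the 6 h group.

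**Figure D4:**
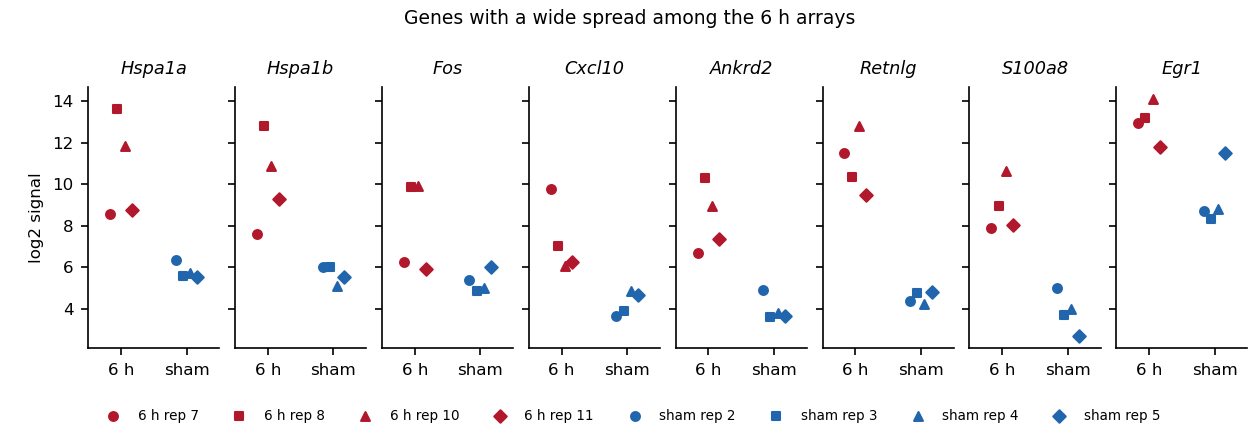
Log2 signal of single arrays, 6 h left and sham right, with 1 marker shape per replicate, for the 5 genes with the widest range among the 6 h arrays and for Retnlg, S100a8 and Egr1, which were added after their values were seen. Hspa1a ranges from 8.58 to 13.59 over the 6 h arrays and from 5.51 to 6.34 over the sham arrays.

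Several genes that rose or fell at 6 h had means on the other side of sham later. The same sham arrays serve every time. Nr4a3 averaged 8.37 ± 0.47 in sham, 12.28 ± 0.49 at 6 h, 6.58 ± 0.57 at 24 h and 6.18 ± 0.25 at 72 h (SD, n = 4 each). The 24 h mean minus the 6 h mean was -5.70 ± 0.28 (SE, adjusted p = 9.38e-11). Timp3 averaged 10.73 ± 0.14 in sham, 12.77 ± 0.25 at 6 h, 8.85 ± 0.30 at 24 h and 10.50 ± 0.17 at 72 h, with a difference between 24 h and 6 h of -3.92 ± 0.17 (SE, adjusted p = 1.10e-11). Pdk4 averaged 13.42 ± 0.56 in sham, 17.43 ± 0.18 at 6 h, 12.19 ± 0.22 at 24 h and 13.58 ± 0.67 at 72 h, and differed between 24 h and 6 h by -5.24 ± 0.28 (SE, adjusted p = 2.35e-10). Hspb1 averaged 11.71 ± 0.36 in sham, 15.27 ± 0.28 at 6 h, 15.10 ± 1.16 at 24 h and 10.51 ± 0.44 at 72 h.

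Igf1 and several matrix genes took the opposite course. Igf1 averaged 12.04 ± 0.44 in sham, 10.65 ± 0.48 at 6 h, 13.57 ± 0.42 at 24 h and 15.30 ± 0.45 at 72 h (SD, n = 4 each), and was higher at 72 h than at 6 h by 4.66 ± 0.27 (SE, adjusted p = 3.76e-10). Mxra8 averaged 8.59 ± 0.28 in sham, 6.13 ± 0.71 at 6 h, 8.46 ± 0.25 at 24 h and 10.70 ± 0.53 at 72 h, and differed between 72 h and 6 h by 4.57 ± 0.29 (SE, adjusted p = 1.15e-09). Cd248 differed between 72 h and 6 h by 2.75 ± 0.22 (SE, adjusted p = 2.16e-08) and Col3a1 by 6.45 ± 0.29 (SE, adjusted p = 1.41e-11). Of the leading rises, Thbs1 averaged 4.74 ± 0.38 in sham, 13.66 ± 0.37 at 6 h, 9.82 ± 1.07 at 24 h and 9.41 ± 0.87 at 72 h. Hbegf averaged 6.36 ± 0.34 in sham, 13.60 ± 0.17 at 6 h, 9.75 ± 1.36 at 24 h and 7.0 ± 0.49 at 72 h. Prg4 was at 15.05 ± 0.46 at 24 h and at 10.99 ± 1.27 at 72 h. Aplnr, lowest at 6 h, stood at 10.69 ± 0.31 at 24 h and 11.19 ± 0.25 at 72 h, while Crhr2 stood at 9.57 ± 0.26 and 9.55 ± 0.24 at these times, between its 6 h and sham means.

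**Figure D5:**
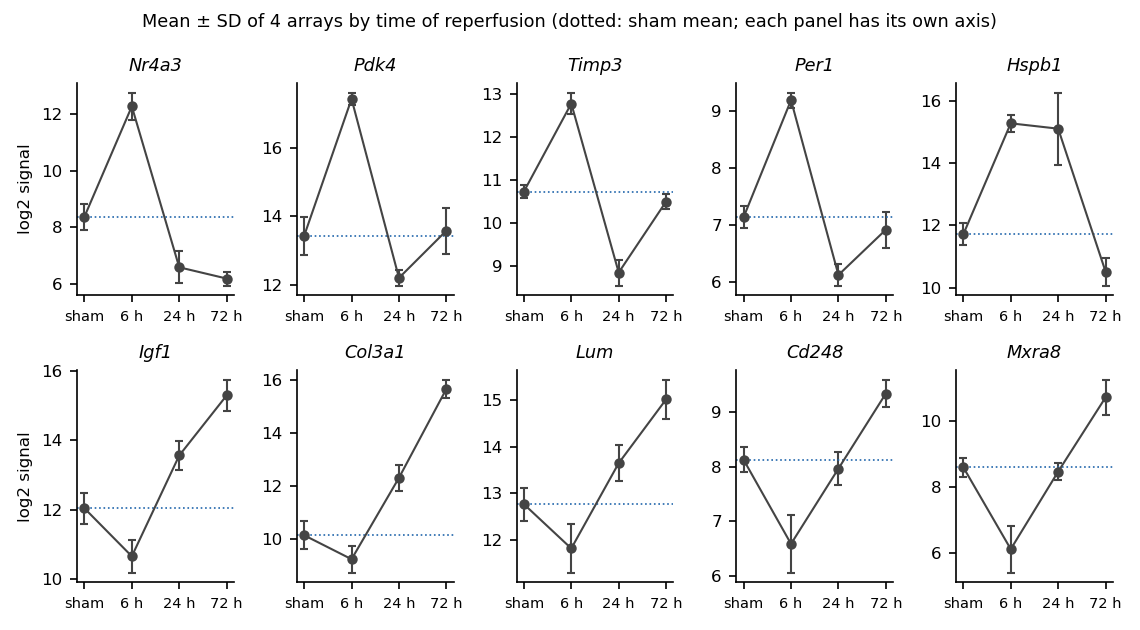
Mean log2 signal with SD bars of 4 arrays in sham and at 6, 24 and 72 h of reperfusion for 10 genes, each panel with its own axis and the sham mean dotted. Nr4a3, Pdk4, Timp3, Per1 and Hspb1 (upper panels) are above sham at 6 h and reach means below sham later, and Igf1, Col3a1, Lum, Cd248 and Mxra8 (lower panels) are below sham at 6 h and above it at 72 h. All 10 are from a set picked by their changes at 6 h and later and by the difference between these times.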

How the data were processed

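The series measured total heart RNA of mice on 16 Affymetrix arrays, 4 each of sham and of 6, 24 and 72 h of reperfusion. The array identifiers in the deposited table are of another design than the one its text names, and its title gives other hours than the sample labels, which were followed. The authors deposited 1 table of log2 signals for 28846 probe sets, made with Affymetrix Expression Console, per the submitters' processing notes. Its version, its background correction and its summarization are not named in the labels. A log base of 2 was assumed, and array medians were 5.84 to 5.95. The highest value, 19.82, is beyond the range that raw scanner values usually have, so folds hold on the deposited scale only. The number of arrays limits the precision.

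No further normalization was applied. One symbol was paired with 19572 probe sets, several with 0, and 9274 were without one (5222 negative, 1324 positive and 63 ERCC controls, 23 GC controls, 4 hybridization and 4 poly-A spike-ins and 2634 unnamed transcript clusters). For the 55 genes with more than 1 probe set the one with the highest mean was taken, which gave 19505 genes. In R 4.3.3, limma 3.58.1 fitted group means over all 16 arrays (lmFit and eBayes, 12 residual and 6.94 prior degrees of freedom, median SE 0.183) with Benjamini-Hochberg adjustment of the p-values over all genes and a threshold of 0.05. The same steps were tested on simulated data. Figures were drawn with matplotlib 3.10.9. Promoter windows came from RefSeq, matched by symbol. No 2 arrays held identical values.

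Genes named are the 15 largest rises and falls whose arrays did not overlap, the first 4 measured genes and up to 4 largest called changes in each direction of each list, the 5 genes with the widest range at 6 h and the genes with a printed promoter. Predicted genes were passed over, and other list members are given with their value and call. Members and lists were chosen with earlier results of these data known. Alternatives were 4 rescalings of the arrays (quantile, median and the 2 sets of spike-ins), the mean of probe sets, 2 filters on dim genes, a fit of the 8 arrays alone, a trended robust variance, array weights and leaving out each array in turn.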

Additional observations from a re-analysis of the deposited data

Results flagged for a closer look

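Single arrays lay far from the other 3 of their group in 35 of 624 pairs of a gene and a group (5.61%), those in which the gap to the nearest array took more of the range of the group than Dixon's 95% critical value for 4 samples allows. Chance alone marks about 1 in 20 groups. Sham replicate 5 had 11 of these values and 6 h replicate 11 had 8. Replicate 10 of the 6 h group was above the other 3 arrays of its group for Itgam (9.65, against 9.25 to 9.32). Replicate 11 of the 6 h group was above the other 3 arrays of its group for Ddx21 (12.81, against 12.55 to 12.58). Replicate 11 of the 6 h group was below the other 3 arrays of its group for Birc3 (11.59, against 12.44 to 12.50), Ccn1 (16.91, against 17.72 to 17.87), Cdkn1a (15.70, against 16.08 to 16.16), Errfi1 (13.58, against 14.46 to 14.49), Il1rn (7.15, against 7.50 to 7.55), Pim1 (9.84, against 11.07 to 11.14) and Tlr13 (7.24, against 8.52 to 8.61). Replicate 7 of the 6 h group was above the other 3 arrays of its group for Ccl2 (12.09, against 11.36 to 11.47), Ifit1 (8.80, against 6.86 to 7.02), Ifit3 (12.35, against 10.41 to 10.65) and Osmr (13.32, against 13.04 to 13.08). Replicate 7 of the 6 h group was below the other 3 arrays of its group for Ddit3 (7.65, against 8.84 to 8.98) and Rrp12 (9.60, against 10.24 to 10.32). Replicate 8 of the 6 h group was above the other 3 arrays of its group for Aldh1a2 (8.69, against 8.11 to 8.15), Col4a2 (9.84, against 9.41 to 9.45) and Ece1 (7.95, against 6.88 to 7.03). Replicate 8 of the 6 h group was below the other 3 arrays of its group for Trim63 (13.27, against 13.46 to 13.49). Sham replicate 2 was above the other 3 arrays of its group for Ankrd2 (4.88, against 3.59 to 3.78) and Slc2a1 (11.59, against 11.41 to 11.43). Sham replicate 2 was below the other 3 arrays of its group for Ccn2 (7.37, against 7.62 to 7.65). Sham replicate 3 was above the other 3 arrays of its group for Pdk4 (14.25, against 13.09 to 13.26). Sham replicate 3 was below the other 3 arrays of its group for Plau (5.68, against 6.03 to 6.09). Sham replicate 5 was above the other 3 arrays of its group for Ankrd1 (18.27, against 16.62 to 16.79), Ccnd2 (12.89, against 12.44 to 12.49), Crhr2 (10.96, against 10.39 to 10.47), Egr1 (11.49, against 8.33 to 8.81), Igf1 (12.70, against 11.77 to 11.88), Pim1 (9.54, against 8.71 to 8.84) and Rpl7 (14.41, against 14.10 to 14.14). Sham replicate 5 was below the other 3 arrays of its group for Cd36 (17.23, against 17.58 to 17.64), Fgf7 (4.90, against 5.72 to 5.75), Lcn2 (7.38, against 9.95 to 10.40) and Tnnt2 (18.78, against 18.95 to 18.98).

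A second set was drawn from the 312 genes with values here. They had changes of opposite sign at 6 h and later, each past the threshold at both times. An adjusted p below 0.05 by limma for the difference between the times was a further condition of entry. The change from sham at 24 h minus that at 6 h was 1.34 for Bgn, 3.08 for Col3a1, 1.64 for Cx3cr1, 1.62 for Cxcl12, 2.92 for Igf1, 1.83 for Lum and 2.70 for Rbl1, all lower than sham at 6 h and higher than sham at 24 h. The change from sham at 24 h minus that at 6 h was -1.62 for Jph1, -5.70 for Nr4a3, -5.24 for Pdk4, -3.07 for Per1 and -3.92 for Timp3, all higher than sham at 6 h and lower than sham at 24 h. The change from sham at 72 h minus that at 6 h was 2.36 for Adamts10, 2.23 for Bgn, 2.75 for Cd248, 6.45 for Col3a1, 2.46 for Cx3cr1, 1.85 for Cxcl12, 2.36 for Hpgd, 4.66 for Igf1, 3.20 for Lum, 4.57 for Mxra8 and 2.66 for Rbl1, all lower than sham at 6 h and higher than sham at 72 h. The change from sham at 72 h minus that at 6 h was -3.11 for Adamts9, -2.89 for Dusp10, -1.49 for Fbxo30, -4.76 for Hspb1, -1.81 for Jph1, -2.53 for Kcna5, -6.10 for Nr4a3 and -5.11 for Xirp1, all higher than sham at 6 h and lower than sham at 72 h. The adjusted p of these differences was 1.82e-13 to 3.38e-05, and because it served to pick the genes it adds no separate support. Both changes use the same sham arrays, so each difference is that between the later and the 6 h arrays.

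Outside the named genes, 142 of 2634 transcript clusters without a gene symbol were higher at 6 h than in sham by limma, and 199 were lower. They are not named here.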

How the results depend on the processing

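Scaling moved the counts most. Under centring on the hybridization spike-ins 975 genes were higher and 3993 lower, with 565 higher and 1148 lower by at least 2-fold. Under centring on the poly-A spike-ins 864 were higher and 6087 lower, with 491 higher and 1634 lower by at least 2-fold. Rises then made up 19.6% and 12.4% of the calls, against 39.2% on the deposited scale (1545 higher and 2395 lower, 755 and 609 of them by at least 2-fold). Which scale is closer to RNA per heart was not tested. Quantile normalization gave 1650 higher and 2264 lower. Leaving out single arrays gave 1331 to 1476 genes higher and 1865 to 2288 lower, and 736 to 790 higher and 548 to 700 lower by at least 2-fold. No paired analysis was possible because no 2 groups share a replicate number.

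Of the 312 genes with values here, 255 were called, and 251 of these kept their call and direction under every alternative that tested them. The other 4 (Batf3, Lum, Tyms and Col3a1) lost it without 1 array, Batf3 also under median centring, a trended robust variance and array weights and Tyms under both spike-in centrings. None changed sign among the called. Many of these genes were picked for the largest changes of a list, so their stability does not describe all calls. Atp2a2, Col1a1, Hspa5, Il11, Nkx2-5, Thbs2 and Trib3 passed as lower under poly-A centring, Dusp1 passed without 6 h replicate 11 and Thbs4 with the 8 arrays alone. Of 2916 list counts under alternatives, 260 lay outside 1.5 times the main count, including those under the spike-in centrings and under filters that test fewer genes. Dim genes limit the sizes of changes: below background a fold depends on the background correction, and 4 arrays in each group leave a median SE of 0.183 on the log2 scale.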
